A study of Mus musculus with 6 samples.

Results

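The serine, asparagine and proline synthesis enzymes described here are 10 of the 55416 genes of the deposited count table. They were chosen by name, with earlier results of these data known. Each Ensembl identifier was matched to a GENCODE mouse gene name (release M39). Phgdh, Psat1 and Psph make serine, Asns and Got1 make asparagine and aspartate, and Aldh18a1 and Pycr1 make proline. Aldh1l2 handles one-carbon units from serine, and Cbs and Cth pass the sulfur of homocysteine to cysteine. All 10 passed the filter on low counts, so all were tested.

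RNA was sequenced from mouse epiblast-like cells (EpiLCs), the formative pluripotent state that embryonic stem cells reach after leaving naive culture. WT cells were the 46C line, which carries a Sox1-GFP reporter, and the Oct6 KO cells were a single clone of that line, so differences of genotype and of clone cannot be told apart. The KO clone has a homozygous insertion of 1 nucleotide early in the coding sequence of Oct6 (Pou3f1), made with CRISPR/Cas9, which shifts the reading frame. Both genotypes left 2i+LIF culture and spent 48 h on fibronectin in N2B27 with 1% KSR, bFGF and Activin A at 12 and 20 (ng/ml in the sample labels, µg/ml in the series' design). Each genotype had 3 libraries of ribosomal-RNA-depleted total RNA, numbered 1 to 3 and called paired in the series' design. Total counts were 13202494, 10995505 and 14680930 in WT 1, 2 and 3 and 12468807, 13332588 and 13213843 in KO 1, 2 and 3. Levels are given as CPM, counts scaled to the library total and its TMM factor, and fold changes compare KO with WT.

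Pou3f1 itself was measured at 161, 143 and 122 CPM in WT and at 127, 141 and 128 CPM in KO. The ranges overlapped, and the log2 fold change was −0.10 (SE 0.11, adjusted p = 0.57). An insertion of 1 nucleotide leaves the transcript countable, so this level does not check the genotype labels. The 7 markers of pluripotent cells and EpiLCs summed to 3260, 3390 and 3050 CPM in WT and 3240, 3180 and 3060 in KO, with Dnmt3b the most abundant. Of these, Sox2, Fgf5 and Otx2 were higher in KO and none was lower. Naive markers (6 genes, Zfp42 most abundant) summed to 205, 217 and 216 CPM in WT and 298, 300 and 374 in KO, and Nanog, Zfp42 and Esrrb were higher.

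Neural markers (5 genes, Tubb3 most abundant) summed to 77.3, 76.6 and 73 CPM in WT and 38.2, 35.3 and 39.3 in KO, where the 3 tested, Sox1, Nes and Tubb3, were all lower. The 6 primitive endoderm markers reached at most 17.6 CPM in sum (KO 3), with Dab2 the most abundant over the 6 libraries, and Gata6 and Pdgfra were higher in KO. Mesoderm markers (5 genes) reached at most 12.1 CPM (KO 3), nearly all of it Eomes, which was higher in KO. Fibroblast markers (5 genes, Col1a2 most abundant) reached at most 8.06 CPM (WT 1), with Thy1 lower. No marker was at 0 in every library, while 2 of the endoderm, 4 of the mesoderm, 2 of the neural and 3 of the fibroblast markers were under 1 CPM in all 6. The part of these shifts in the results that follow was not tested, and in bulk RNA fewer cells of a type and less RNA per cell cannot be told apart. The p-values measure the spread between these libraries.

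Serine is built from a glycolytic intermediate in successive steps of oxidation, transamination and dephosphorylation, and feeds glycine, one-carbon units and, through transsulfuration, cysteine. Asparagine comes from aspartate and glutamine, and proline from glutamate in the mitochondrion. Many of these enzymes are textbook targets of ATF4, a transcription factor whose translation rises when amino acids run short or the endoplasmic reticulum is stressed.

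Of the 10 enzymes, 6 were lower in KO EpiLCs at an adjusted p under 0.1, against 12.5% of the 15746 genes tested. They were Asns, Aldh18a1, Psat1, Cth, Pycr1 and Aldh1l2. Aldh1l2 passed the filter through the WT libraries and KO 1, since KO 2 and KO 3 had 1 count each, and with at least 10 counts required in every library it was not tested and 5 enzymes were lower. No enzyme was called higher by edgeR (0 at an unadjusted p under 0.05, and 0 by DESeq2), where 11.8% of all genes were. With WT 2 left out, 1 was, namely Phgdh, as described for that gene. The median log2 fold change was −0.54 over the enzymes and 0.0014 over all genes tested. Since the enzymes were chosen with earlier results of these data known, these contrasts describe them and are no test. Outside chromosome 6, where Asns lies, 5 of 9 enzymes were lower and the median was −0.50. Among the called enzymes, Aldh1l2, with that limit, alone also had a log2 fold change of at least 1 in size, where 6.21% of all genes met both criteria. Under DESeq2 and without any one of WT 2, WT 3, KO 2 or KO 3, the count meeting both was 0, since the adjusted p of Aldh1l2 was then no longer under 0.1. The enzymes' summed level was 1050, 1280 and 1130 CPM in WT and 873, 866 and 843 CPM in KO, so the ranges did not overlap. This sum rests largely on Asns, on proximal chromosome 6, and on Psat1. Their means went from 326 to 198 CPM and from 286 to 191 CPM, the largest falls in CPM among the enzymes. The share of all genes whose ranges did not overlap was not counted.

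**Figure D1:**
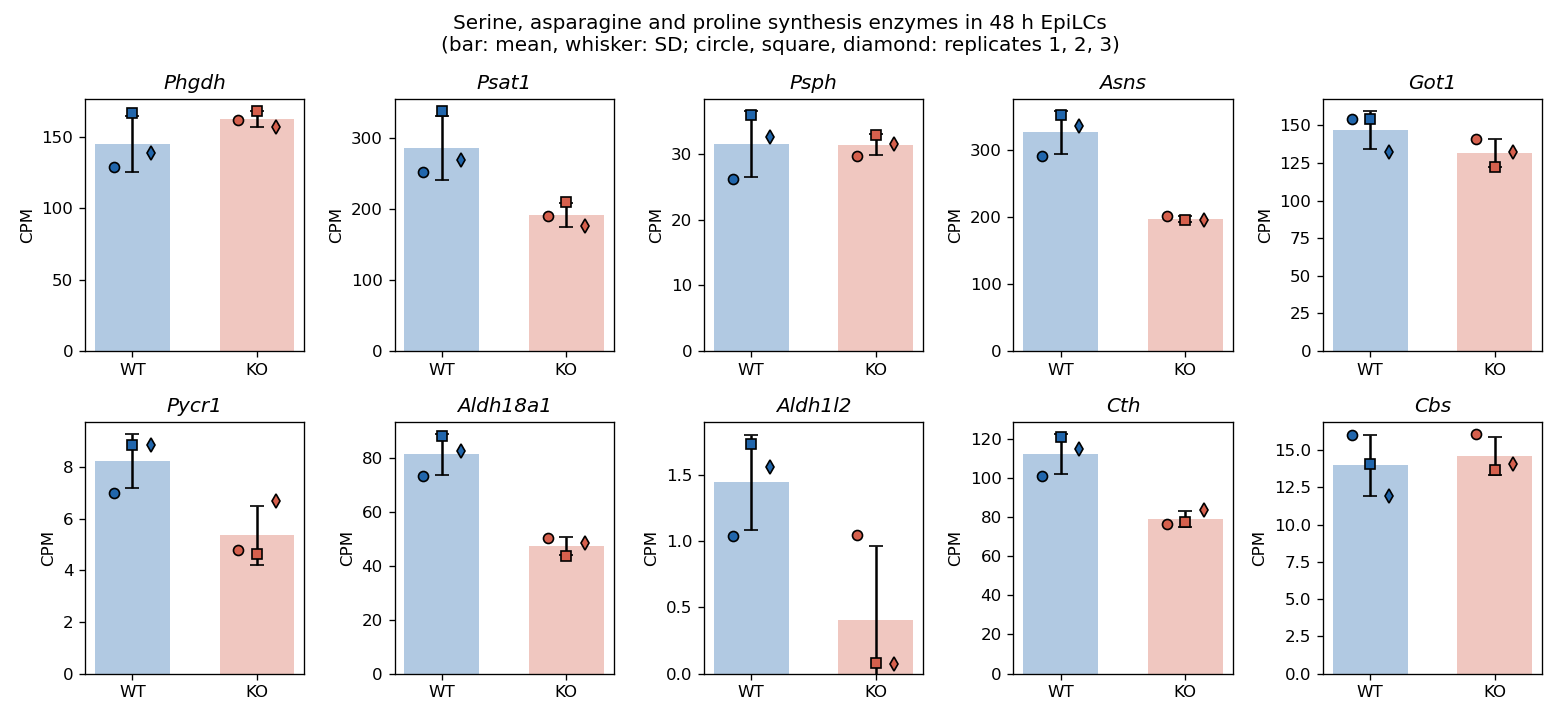
Level of each enzyme in CPM in the 3 WT (blue) and 3 KO (red) libraries; bars are means, whiskers SD, and circles, squares and diamonds replicates 1, 2 and 3. For Psat1, Asns, Pycr1, Aldh18a1 and Cth every KO library lies under every WT library, whereas Aldh1l2 overlaps through KO 1, Phgdh through WT 2, and the ranges of Psph, Got1 and Cbs overlap as well.

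Per kilobase of the canonical transcript, the mean WT level ran from 109 CPM for Psat1 through 76.6 for Phgdh, 70.5 for Got1, 66.6 for Asns and 61.7 for Cth to 23 for Aldh18a1 and 13 for Psph. Pycr1 (4.37), Cbs (2.25) and Aldh1l2 (0.24) were the lowest of the 10 on this scale. Low and high expressors were thus found among the enzymes that fell and among those that were not called.

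Promoter sequences are shown because 6 enzymes were lower together and because ATF4 binds a composite element with C/EBP partners. RefSeq windows of 300 bases, 250 before to 50 after the start (table build GRCm38.p6), were found for 8 of the 10 enzymes (9 windows), with no entry for Aldh1l2 and Cth. The core of the C/EBP-ATF response element, TGATGNAA, was searched on both strands and was present in 3 of the 8, namely Asns, Pycr1 and Got1, and in 4.51% of the 27025 gene symbols of the table. The octamer ATGCAAAT, bound by POU factors such as Oct6, was in 0 of the 8 and in 1.97% of all symbols. The motifs can overlap, since TGATGCAA followed by AT holds the octamer. The stretches of 30 bases around each match, placed on GRCm39 by their exact sequence and written on the strand of the gene, have the match in capitals.
Asns: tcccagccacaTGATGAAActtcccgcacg
Pycr1: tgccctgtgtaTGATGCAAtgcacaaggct
Got1: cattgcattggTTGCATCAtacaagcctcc
The Asns match starts 23 bases before the RefSeq start (chr6:7693214-7693243, minus strand), inside an exon and untranslated part of the GENCODE canonical transcript, which starts further upstream. That of Pycr1 starts at −103 (chr11:120534659-120534688, minus strand) and overlaps no annotated exon of the gene. The Got1 match lies on the other strand at −102 (chr19:43513128-43513157, minus strand), in an untranslated exon of 1 of its 31 annotated transcripts. Of these 3 genes, Asns and Pycr1 were lower and Got1 was not called. The motif was not found in the windows of Psat1 and Aldh18a1, which were lower as well. A match describes letters and is not a measured binding site.

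Of the serine enzymes, Psat1 was called lower, and no test compared it with the others. Psat1 (ENSMUSG00000024640.10, chr19:15882039-15924701), the aminotransferase that makes phosphoserine, was at 251, 337 and 268 CPM in WT and at 190, 209 and 175 CPM in KO. Every KO library was under every WT library, and KO cells held 67% of the WT mean. This gave a log2 fold change of −0.58 (SE 0.11, 95% interval −0.81 to −0.34, adjusted p = 0.0012). The tested genes within 5 Mb of Psat1 had a median of 0.12, opposite in sign.

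Phgdh (ENSMUSG00000053398.12, chr3:98220484-98255047), which commits 3-phosphoglycerate to the pathway, was at 129, 167 and 139 CPM in WT and 162, 168 and 157 CPM in KO. WT 1 and WT 3 were under all KO libraries, while WT 2 lay among them. Its log2 fold change was 0.16 (SE 0.11, 95% interval −0.06 to 0.38, adjusted p = 0.34). Without WT 2 it was 0.27 and was called higher (adjusted p = 0.086, with 0.086 to 0.72 over all alternatives). Of the stretches of 50 bases in its canonical transcript, 63.1% also occur in exons of 26 other annotated genes, so its count is uncertain where reads could be split among copies.

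Psph (ENSMUSG00000029446.15, chr5:129841925-129864513), the phosphatase that releases serine, was at 26.1, 35.9 and 32.5 CPM in WT and 29.7, 32.9 and 31.5 CPM in KO. The KO libraries all fell within the WT range, for a log2 fold change of −0.0039 (SE 0.13, 95% interval −0.28 to 0.27). Psph shares 465 exon bases with Cct6a on the opposite strand, a gene at 1460 CPM in WT and 1470 CPM in KO. The sources do not say whether counting used strand, so this level is uncertain.

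Asns (ENSMUSG00000029752.13, chr6:7671667-7728461), the synthetase that amidates aspartate to asparagine, was at 291, 352 and 336 CPM in WT and at 202, 195 and 195 CPM in KO. The groups were well apart, with KO at 60.5% of the WT mean. The log2 fold change was −0.72 (SE 0.098, 95% interval −0.93 to −0.52, adjusted p = 4.1e-05). Its position matters for reading this value, because genes along the proximal part of chromosome 6 were lower in the KO clone as a body. The genes starting in the first 100 Mb took 3.62, 3.66 and 3.76% of all counts in WT and 2.59, 2.53 and 2.54% in KO. Of the 476 other genes tested there, 277 were lower and 16 higher, with a median log2 fold change of −0.52 and quartiles of −0.76 and −0.27.

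Set against that median, Asns differed by −0.20 on the log2 scale, and 135 of the 476 genes (28.4%) had a more negative value. Among the 177 of these genes with an average log2 CPM of at least 5, 16.4% were more negative and the difference was −0.19. The closest 35 genes, within 5 Mb of Asns, had a median of −0.51. Pair by pair the difference was −0.04 for replicate 1, −0.36 for replicate 2 and −0.23 for replicate 3. The median of the surrounding genes thus amounts to −0.52 of the −0.72 measured for Asns.

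Within each library, Asns took 82.2, 97 and 90.8 of every 10000 counts of the other proximal chromosome 6 genes in WT and 77.7, 75.5 and 77.9 in KO. The ranges did not overlap, at 90 ± 7.41 against 77.1 ± 1.33 (SD, n = 3 each, log2 ratio −0.22, two-sided exact permutation p = 0.1, the smallest this design allows). When the median shift of proximal chromosome 6 was taken out in the edgeR fit, Asns kept a log2 fold change of −0.20 (SE 0.098, 95% interval −0.41 to 0.0024, adjusted p = 0.18) and was not called. It was called with replicate number as a block (−0.20, adjusted p = 0.098) and without WT 1 (−0.29, adjusted p = 0.074), with adjusted p from 0.074 to 0.45 over all alternatives. What lowers these genes in the clone was not tested.

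**Figure D2:**
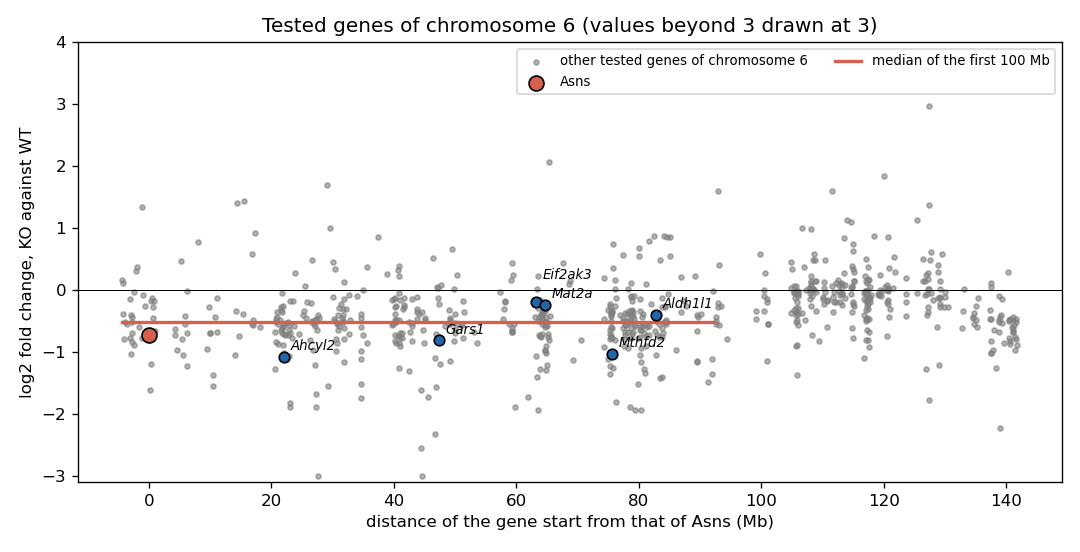
Log2 fold change (KO against WT) of each tested gene of chromosome 6 by the distance in Mb of its start from that of Asns; the red line is the median of the first 100 Mb (−0.52), Asns is the red point, and blue points are genes of the pathway lists on that part. Asns at −0.72 lies inside the lowered band, whereas Mthfd2 and Ahcyl2 lie further under its median.

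The tested genes on either side of Asns differed among themselves. C1galt1, which extends O-glycans, was lower (−0.66, adjusted p = 0.00097), as was Gm43961 at under 2 CPM (−1.62, adjusted p = 0.05). Gm20618, at 1.84 CPM on average in KO, was higher (1.34, adjusted p = 0.022). The complex II assembly factor Sdhaf3 (−0.26), Rnps1-ps (−0.17) and Gm5873 (−0.09) were not called. A long noncoding gene that overlaps Asns on the opposite strand, 1700012J15Rik, had 0 counts in every library.

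Got1 (ENSMUSG00000025190.14, chr19:43488188-43513674), the cytosolic aminotransferase that interconverts aspartate and glutamate, was at 154, 154 and 132 CPM in WT and 141, 122 and 132 CPM in KO. The ranges overlapped. The log2 fold change was −0.16 (SE 0.10, 95% interval −0.37 to 0.06, adjusted p = 0.33).

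Both enzymes of the route from glutamate to proline were lower. Aldh18a1 (ENSMUSG00000025007.14, chr19:40538698-40576949), which makes the precursor of pyrroline-5-carboxylate, was at 73.1, 88.3 and 82.4 CPM in WT and at 50.1, 43.5 and 48.3 CPM in KO. The groups did not overlap, with KO at 58.2% of WT, for a log2 fold change of −0.78 (SE 0.11, 95% interval −1.01 to −0.55, adjusted p = 5e-05), while the tested genes within 5 Mb had a median of −0.03. Aldh18a1 shares 914 exon bases with Gm58925, a noncoding gene on the opposite strand with no entry in the table, and 103 with Gm27042, also opposite and at 6 counts or fewer in every library. These genes hold 25.3% of its stretches of 50 bases.

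Pycr1 (ENSMUSG00000025140.16, chr11:120526484-120539269), the reductase of the last step, was at 7.02, 8.85 and 8.86 CPM in WT and 4.78, 4.63 and 6.69 CPM in KO. KO 3 came close to WT 1 without reaching it. Myadml2os, which shares 17 exon bases with Pycr1 on the opposite strand, had 0 counts in every library. A log2 fold change of −0.61 was fitted (SE 0.21, 95% interval −1.06 to −0.17, adjusted p = 0.048). Its call was lost without WT 2 (adjusted p = 0.13), WT 3 (0.14), KO 1 (0.15) or KO 2 (0.17), with log2 fold changes from −0.57 to −0.52 in these and adjusted p from 0.018 to 0.17 over all alternatives.

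Aldh1l2 (ENSMUSG00000020256.15, chr10:83323314-83370005), the mitochondrial enzyme that oxidises 10-formyltetrahydrofolate, was barely detected. It had 14, 19 and 23 counts in WT and 13, 1 and 1 counts in KO. KO 1 was at the level of WT 1, so the groups overlapped, and the lower mean came from KO 2 and KO 3. The log2 fold change was −1.85 (SE 0.64, 95% interval −3.19 to −0.51, adjusted p = 0.049). It was −4.08 without KO 1, and the call was lost with DESeq2 (adjusted p = 0.1) and without WT 2 (0.13), WT 3 (0.13), KO 2 (0.18) or KO 3 (0.21), where all alternatives ran from 0.0015 to 0.21. Nopchap1, at 211 CPM in WT and 225 CPM in KO, shares 1056 exon bases with it on the opposite strand, so these few counts are uncertain.

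Of the transsulfuration enzymes, Cth was lower and Cbs was not called. Cth (ENSMUSG00000028179.13, chr3:157599868-157630739), which cleaves cystathionine to cysteine, was at 101, 121 and 115 CPM in WT and at 76.3, 77.4 and 83.6 CPM in KO. All KO libraries were under all WT libraries, with KO at 70.5% of WT. The log2 fold change was −0.50 (SE 0.10, 95% interval −0.72 to −0.29, adjusted p = 0.0015), and no stretch of 50 bases was shared with another gene.

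Cbs (ENSMUSG00000024039.16, chr17:31827868-31856646), which makes cystathionine, was at 16, 14.1 and 11.9 CPM in WT and 16.1, 13.7 and 14.1 CPM in KO. These ranges overlapped almost fully, and the log2 fold change was 0.06 (SE 0.16, 95% interval −0.27 to 0.40, adjusted p = 0.84). Whether the folds of Cth and Cbs differ from each other was not tested.

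**Figure D3:**
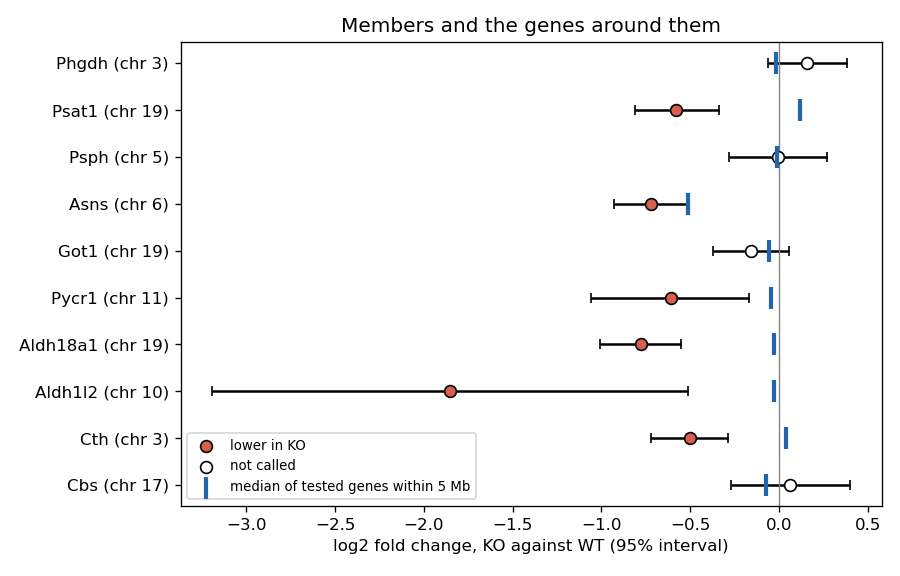
Log2 fold change (KO against WT) of each enzyme with its 95% interval, red where lower at an adjusted p under 0.1 and white where not called; the blue tick is the median of the tested genes within 5 Mb. The tick of Asns sits at −0.51, close to the gene, whereas those of the other 9 lie between −0.08 and 0.12.

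Replicates were not alike across the enzymes. WT 2 was the highest WT library for 8 of the 10, and the enzymes' median deviation from their group mean was 0.12 in WT 2 and −0.16 in WT 1, where over all genes it was −0.0036 and 0.0055. KO 1, 2 and 3 deviated by 0.02, −0.06 and −0.01. Without WT 2, 4 enzymes were lower and the median log2 fold change of all 10 was −0.45. The median ratio of same-numbered libraries was −0.26 for replicate 1, −0.66 for replicate 2 and −0.43 for replicate 3 on the log2 scale. Over the 6 libraries, the enzymes' mean profile was most closely followed by Iars1 (mean absolute difference 0.041), Neu1 (0.044), Vgll4 (0.049), Fam83g (0.049) and Mogs (0.054). This ranking rests on Aldh1l2, since with that enzyme left out of the mean, a step chosen after seeing the data, 0 of these 5 were among the closest 5 and Iars1 ranked 709 of 9842. Mogs lies on proximal chromosome 6, and its log2 fold change of −0.50 was no larger in size than the median of its neighbours within 5 Mb (−0.56). Iars1 charges the isoleucine tRNA, Neu1 is a lysosomal sialidase and Mogs trims N-glycans.

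Of 12 tested genes that use serine and glycine (14 listed), 3 were lower and 1 was higher, where 12.5 and 11.8% of all genes were. The median log2 fold change was 0.0017. Mthfd2, which with Shmt2 moves one-carbon units from serine in the mitochondrion, was at 144, 187 and 165 CPM in WT and at 86.5, 83.5 and 72.7 CPM in KO. All KO libraries were far under WT (log2 fold change −1.03, SE 0.11, adjusted p = 4.1e-06). Mthfd2 lies on proximal chromosome 6, and beyond the shift of that part it was still lower (−0.51, SE 0.11, adjusted p = 0.003). The shift is a single median, while the genes of that part spread around it (quartiles −0.76 and −0.27). How many of them would be called beyond it was not counted, so such calls have no share to be read against. Shmt2 (−0.51, adjusted p = 0.0019), on chromosome 10, was lower too. Aldh1l1 (−0.40, adjusted p = 0.034), the cytosolic relative of Aldh1l2, lies on proximal chromosome 6 and was not called beyond the shift (0.12, adjusted p = 0.59). Gldc, the decarboxylase of glycine cleavage, was higher (0.69, adjusted p = 0.00075). The count of higher genes was 2 with the replicate block and without WT 2 or KO 3.

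Among 11 genes of asparagine, aspartate and glutamate handling, 3 were lower and 1 was higher (12.5 and 11.8% over all genes), with a median of −0.10. The lower ones were Aspg, an asparaginase (−0.54, adjusted p = 0.073), the branched-chain aminotransferase Bcat1 (−0.46, adjusted p = 0.011) and the alanine aminotransferase Gpt2 (−0.45, adjusted p = 0.0074). Bcat1 lies on distal chromosome 6, where the 51 tested genes within 5 Mb of it had a median of −0.52, so its fall was no larger than the median of its neighbours, and its groups overlapped. Glutamine synthetase, Glul, was higher (0.27, adjusted p = 0.046). The count of higher genes was 0 without a filter on low counts and without WT 3, KO 1 or KO 3.

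In the proline, ornithine and arginine list (10 tested of 11), 3 genes were lower and 2 higher, set against 12.5 and 11.8% of all genes, with a median of −0.03. Pycr3, a cytosolic relative of Pycr1, was lower (−0.44, adjusted p = 0.042), a call lost without WT 1 (−0.35, adjusted p = 0.17), WT 2 (−0.43, adjusted p = 0.1) or KO 2 (−0.39, adjusted p = 0.14), with adjusted p from 0.018 to 0.17 over all alternatives. Aldh4a1, which turns the product of proline oxidation into glutamate, was higher at 32.1, 28.9 and 28.1 CPM in WT and 46.7, 37.6 and 41.8 CPM in KO (0.50, SE 0.12, adjusted p = 0.0057). So was Prodh, the proline dehydrogenase, whose value is given because it was seen to be called (0.42, adjusted p = 0.019). Prodh lies on chromosome 16, where the tested genes had a median of 0.55 (0.51 within 5 Mb of Prodh), so its rise was no larger than the median of its neighbours. The count of lower genes was 1 without WT 1, WT 2 or KO 2.

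The methionine and cysteine list (11 tested of 12) had 1 lower and 2 higher genes, beside 12.5 and 11.8% of all genes, and a median of −0.0014. Ahcyl2, a relative of S-adenosylhomocysteine hydrolase on proximal chromosome 6, was lower (−1.08, adjusted p = 7.6e-06), also beyond the shift of that part (−0.56, adjusted p = 0.0036). Csad, which leads from cysteine to taurine (0.62, adjusted p = 0.0023), and Mtrr, which keeps methionine synthase active (0.52, adjusted p = 0.00092), were higher. The tested genes within 5 Mb of Mtrr had a median of 0.32. The count of lower genes was 3 with the replicate block and 2 with library totals alone or without WT 1 or WT 3.

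Regulators of the ATF4 and integrated stress response had a median of −0.51, where all genes tested had 0.0014. This list, too, was chosen with earlier results of these data known. Of 16 tested, 8 were lower and 1 was higher, where 12.5 and 11.8% of all genes were. Atf4 was at 263, 299 and 243 CPM in WT and at 137, 119 and 110 CPM in KO. KO cells thus held 45.3% of the WT mean, with no overlap, and the log2 fold change was −1.14 (SE 0.11, 95% interval −1.37 to −0.91, adjusted p = 9.7e-07). Chac1, which degrades glutathione (−1.42, adjusted p = 0.0011), Atf3 (−1.37, adjusted p = 0.001) and Nupr1 (−1.29, adjusted p = 0.011) were also lower, all under 10 CPM. For Nupr1, WT 1 was among the KO libraries. Trib3, Cebpb, Ddit4 and Ppp1r15a completed the lower genes. Sesn2 was the higher one, and the count of higher genes was 0 with library totals alone, at an adjusted p under 0.05, and without WT 2, WT 3, KO 1 or KO 3. These are transcript levels, and the ATF4 protein was not measured here.

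**Figure D4:**
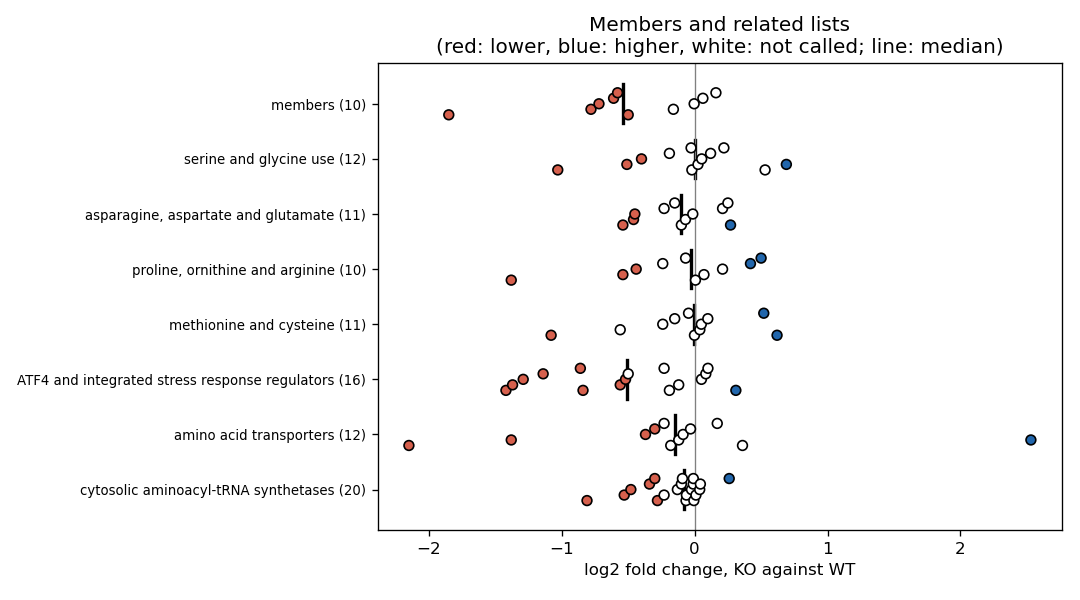
Log2 fold change (KO against WT) of the enzymes and of each tested gene of 7 related lists, with the number of genes in brackets; red is lower, blue higher and white not called at an adjusted p under 0.1, and the black line is the median. The medians of the enzymes (−0.54) and of the ATF4 list (−0.51) lie furthest left among the 8 groups.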

How the data were processed

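Total RNA was extracted with Trizol and made into stranded, ribosomal-RNA-depleted libraries (TruSeq, Gold), read from both ends. After quality checks and trimming (FastQC, Fastp), the authors aligned the reads by the two-pass procedure of STAR (genome GRCm39). They deposited raw counts per gene, whole numbers with no normalization. The annotation release, the strand setting of the counting and the treatment of reads with several matches are not given in the sources used here. Of 55416 identifiers, 54749 matched GENCODE M39, which also gave positions and transcript lengths. Names of genes on opposite strands that share exons are given beside the values they touch.

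The counts of all genes were fitted with edgeR 4.0.16 (quasi-likelihood test, TMM factors, filterByExpr with a minimum count of 10, genotype as the one term) in R 4.3.3, after a test on simulated data. A gene was called at a Benjamini-Hochberg adjusted p under 0.1 over the 15746 genes tested, the threshold of the study; 3833 genes were called. Between libraries of the same genotype, chi-square per degree of freedom was 6.94 to 11.8, a variance larger than sampling alone gives, so each counted as a separate sample. This does not show that the libraries are independent, and all KO libraries came from a single clone. The members and lists were chosen with earlier results of these data known. The text names all members, Pou3f1, Atf4, each called gene of a list (values for at most 4 per list, by size of the log2 fold change), the 5 genes most like the members and 3 genes on either side of Asns. Some called genes of the lists are counted but not reported here by name. Likeness was the mean absolute difference of centred log2 CPM among genes with an average log2 CPM of at least 3.

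The series' design calls the replicates paired, and deviations of same-numbered libraries correlated at 0.22, 0.268 and 0.113 over 13878 genes, against −0.199 to −0.03 for other numbers, so the numbers were taken to pair the libraries. The main fit, with genotype as the one term, leaves this pairing out, and its SE and adjusted p values do not use it. The fit with the replicate block does. Alternatives were DESeq2 1.42.0, other scalings, other filters, an adjusted p under 0.05, the replicate block, each library left out, and other extents of proximal chromosome 6. The comparison of Asns with better counted genes, and the alternatives for Atf4, Mthfd2, Pycr3, Prodh, Aldh4a1 and Pou3f1, were added after seeing the data.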

Additional observations from a re-analysis of the deposited data

How the results depend on the processing

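Psat1, Asns, Aldh18a1 and Cth were called lower under every alternative run, with log2 fold changes of −0.66 to −0.45, −0.80 to −0.67, −0.85 to −0.72 and −0.58 to −0.46. Leaving out single libraries gave 4 to 6 lower enzymes, a median of −0.62 to −0.45, and 3058 to 3790 genes called in all. The replicate block called 4764 genes and changed the call of no enzyme. Over all 15746 genes tested it called 2407 lower and 2357 higher, more than the main fit, so its list counts are to be read against these. It gave 2 higher genes in the serine and glycine list, 3 lower in the methionine and cysteine list and 2 higher among transporters. It also gave 4 lower in the asparagine list, 3 higher in the proline list, 9 lower in the ATF4 list, 5 lower transporters and 7 lower synthetases. Asns beyond the chromosome 6 shift was called at −0.20 (adjusted p = 0.098). Aldh1l2, with 1 count each in KO 2 and KO 3, has no value where every library needs at least 10 counts.

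Enzymes past both an adjusted p of 0.1 and a log2 fold change of 1 numbered 0 with DESeq2, where the adjusted p of Aldh1l2 missed, and with at least 10 counts in every library, where it was not tested. Library totals alone gave 2 lower genes in the methionine and cysteine list and 0 higher in the ATF4 list. With no filter, 0 genes were higher in the asparagine and in the synthetase lists, and at an adjusted p under 0.05, 0 were higher in the ATF4 and synthetase lists, the stricter threshold being the reason there. With single libraries left out, the ranges were 0 to 1 for enzymes higher, 0 to 1 for enzymes past both thresholds, 1 to 2 for serine and glycine genes higher, 0 to 1 for asparagine genes higher, 1 to 3 for proline genes lower, 1 to 2 for methionine and cysteine genes lower, 0 to 1 for ATF4 genes higher, 2 to 5 for transporters lower, 1 to 2 for transporters higher, 0 to 1 for synthetases higher, and −0.29 to −0.14 for Asns beyond the shift. Of the 5 genes most like the enzymes, 0 stayed with Aldh1l2 left out of the mean profile. Elsewhere the cause was not tested.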

Other observations

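Of 12 amino acid transporters, 4 were lower and 1 was higher, where 12.5 and 11.8% of all genes were, with a median log2 fold change of −0.15. Slc7a11, the cystine importer, was at 12.5, 10.9 and 15.6 CPM in WT and 3.89, 2.47 and 2.48 CPM in KO, or 22.7% of the WT mean (−2.15, SE 0.23, adjusted p = 3.4e-06), while the tested genes within 5 Mb of it had a median of −0.46. The glycine transporter Slc6a9 was lower as well, at under 7 CPM (−1.38, adjusted p = 0.015), as were Slc38a1 (−0.37, adjusted p = 0.018) and Slc7a5. Slc38a4 was at 25.2, 32 and 34.7 CPM in WT and 176, 177 and 180 CPM in KO (2.53, SE 0.12, adjusted p = 1.4e-10). The count of lower transporters was 2 without WT 2, and that of higher ones was 2 with the replicate block and without KO 3.

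Of 20 cytosolic aminoacyl-tRNA synthetases, 6 were lower and 1 was higher (12.5 and 11.8% over all genes), with a median of −0.08. Gars1, on proximal chromosome 6, was lower (−0.81, adjusted p = 1.1e-05), also beyond the shift of that part (−0.28, adjusted p = 0.044). Sars1, which charges the serine tRNA (−0.53, adjusted p = 0.0018), Iars1 (−0.48, adjusted p = 0.0036) and Aars1 (−0.34, adjusted p = 0.019) were lower, as were Nars1 and Yars1. The count of higher synthetases was 0 without a filter on low counts, at an adjusted p under 0.05, and without WT 1, WT 2, KO 1 or KO 2. Beyond the same shift, Eif2ak3 (0.33, adjusted p = 0.039) and Mat2a (0.28, adjusted p = 0.077) were higher, whereas without that step they were at −0.19 and −0.24, lower in every KO library than in every WT library and not called. Their direction thus turned with the subtraction of the shift. For Gars1, Eif2ak3 and Mat2a, too, the share of all genes of that part called beyond the shift was not counted.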
